A study of Mus musculus with 4 samples.

Results

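Laminins are the matrix proteins that start a basement membrane, and integrins are the cell surface receptors that bind laminins and other matrix proteins. The genes of both families were taken by their symbols alone, without use of any measured value: every laminin α, β or γ chain and every integrin α or β subunit among the 24421 gene symbols of the count files. This gave 37 genes, of which 11 were laminin chains (5 α, 3 β and 3 γ) and 26 were integrin subunits (18 α and 8 β). The laminin chain gene Lamb4 was not analysed here.

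A laminin is a trimer of an α, a β and a γ chain, and its name lists the numbers of the chains in that order. The trimers are secreted, polymerize on the cell surface, and are held there by integrins and dystroglycan. An integrin is a dimer of an α and a β subunit, and the α subunit largely sets the ligand: some dimers bind laminins, others bind collagens or the RGD motif of fibronectin and vitronectin, and those of white blood cells bind proteins on other cells. In the early mouse embryo, the first basement membranes are made of laminins with the α1 and α5 chains, and loss of the γ1 chain or of integrin β1 stops development around implantation.

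The study sequenced RNA of R1 cells, 1 established line of mouse embryonic stem cells (ESCs), in 2 states with 2 biological replicates each, from separate cultures. Undiff is described in the methods as ESCs maintained with leukaemia inhibitory factor, and by the sample labels as embryoid bodies of R1 cells in growth medium. Day4 is embryoid bodies, aggregates made without that factor in low adherence dishes and, by the methods, grown for 4 days. The embryoid bodies then had 4 days with retinoic acid (RA), given as 2 µM in the methods and as 2 mM in the treatment protocol of the labels. The 4 Illumina TruSeq libraries held 32099074 to 47730944 counts on genes. The states differ in the withdrawal of leukaemia inhibitory factor, in the culture and in the time in culture as well as in RA. These differences cannot be told apart here, and all libraries share 1 unmodified cell line. As bulk RNA, these libraries do not separate fewer cells of a type from less RNA per cell.

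Values are given on 2 scales. Normalized counts are fragments per gene scaled to a common library size, and they serve to compare 1 gene between libraries. FPKM, computed here from the normalized library size and the exon length of each gene, is a level per length, and it serves to compare genes with each other. A gene was called higher or lower in Day4 where edgeR's quasi-likelihood test gave an adjusted p-value of at most 0.05 (Benjamini-Hochberg over all 19891 genes with a count), the absolute log2 fold change was at least 1 and the mean normalized count was at least 5. Of all genes tested 22.2% were called higher and 20.6% lower, and the counts of called genes in each list stand beside these shares. All 10 pluripotent cell markers examined were called lower in Day4, led by Tdgf1 (log2 fold change -11.21), and 9 of 10 endoderm markers were called higher, led by Gata6 (7.09).

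Of the 37 laminin and integrin genes, 26 were called, which is 70.3% of them, beside 42.8% of all genes tested. They divided evenly, with 13 higher and 13 lower in Day4, beside 22.2% and 20.6% of all genes. A mean count of 5 was reached by 35 members, and of all genes that reached it 51.7% were called. By adjusted p-value alone 34 members passed, beside 75.6% of all genes, and the libraries of the 2 states did not overlap for 34 members, beside 85.4% of all genes. The median log2 fold change of the members was -0.17, near the -0.03 of all genes, whereas the median of its absolute value was 1.88 against 1.25.

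**Figure D1:**
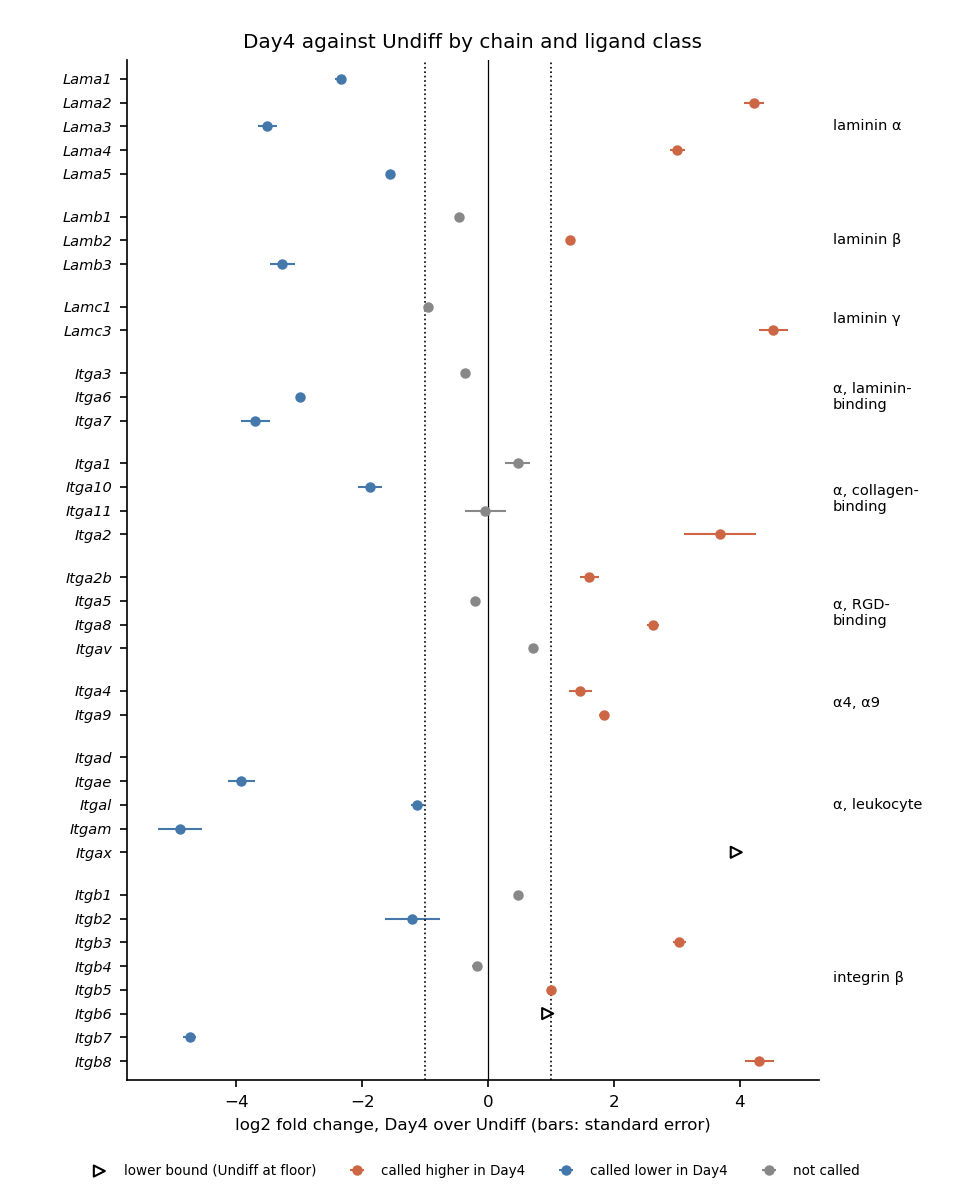
Log2 fold changes of the laminin and integrin genes reported here, Day4 over Undiff, with its standard error, grouped by chain and ligand class; dotted lines mark a log2 fold change of 1 in either direction and triangles mark lower bounds for Itgax and Itgb6, which were at the floor of 3 counts in Undiff. Itgad, at the floor in all 4 libraries, has no point. The laminin α chains lie on both sides of 0, and no α subunit of the class named laminin-binding (Itga3, Itga6 and Itga7) lies above it. Itga1 and Itga2, which bind laminin as well as collagen, are in the collagen-binding class.

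The promoters of 5 members are shown for the genes on which the following paragraphs turn: Lama5, the most abundant laminin α chain; Itga8, the RGD-binding α subunit with the largest rise; Itgb7, the β subunit with the largest fall; and the neighbours Itgam and Itgax, called in opposite directions. Each is the stretch of up to 250 bases before the RefSeq start in GRCm38.p6, without bases that the gene annotation places inside the gene. The windows are Lama5 at chr2:180225860-180226109 (minus strand), Itga8 at chr2:12301945-12302194 (minus), Itgb7 at chr15:102231945-102232185 (minus), Itgam at chr7:128062390-128062639 (plus) and Itgax at chr7:128129300-128129546 (plus). Capitals mark GC boxes (GGGCGG or its reverse complement, the motif of Sp1) and PU boxes (GAGGAA or its reverse complement, the core motif of Spi1, a transcription factor of myeloid cells), which do not overlap in these stretches.
Lama5: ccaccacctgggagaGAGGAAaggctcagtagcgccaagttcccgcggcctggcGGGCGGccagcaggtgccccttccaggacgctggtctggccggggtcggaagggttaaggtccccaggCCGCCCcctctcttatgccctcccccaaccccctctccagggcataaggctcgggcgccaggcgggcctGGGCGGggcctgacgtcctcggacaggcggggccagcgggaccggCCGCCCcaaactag
Itga8: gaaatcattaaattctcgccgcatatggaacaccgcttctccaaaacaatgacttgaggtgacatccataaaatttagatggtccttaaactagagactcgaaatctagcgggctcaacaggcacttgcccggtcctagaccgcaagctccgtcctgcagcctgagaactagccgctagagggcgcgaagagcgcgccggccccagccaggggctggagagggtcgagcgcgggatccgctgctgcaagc
Itgb7: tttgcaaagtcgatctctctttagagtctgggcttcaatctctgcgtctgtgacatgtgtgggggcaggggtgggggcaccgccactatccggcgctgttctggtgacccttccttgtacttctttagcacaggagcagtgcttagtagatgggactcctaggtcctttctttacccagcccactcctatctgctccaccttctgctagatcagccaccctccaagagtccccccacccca
Itgam: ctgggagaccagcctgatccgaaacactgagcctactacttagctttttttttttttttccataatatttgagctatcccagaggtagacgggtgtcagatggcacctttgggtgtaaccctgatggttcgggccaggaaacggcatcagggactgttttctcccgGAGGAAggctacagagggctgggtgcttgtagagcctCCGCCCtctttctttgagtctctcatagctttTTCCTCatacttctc
Itgax: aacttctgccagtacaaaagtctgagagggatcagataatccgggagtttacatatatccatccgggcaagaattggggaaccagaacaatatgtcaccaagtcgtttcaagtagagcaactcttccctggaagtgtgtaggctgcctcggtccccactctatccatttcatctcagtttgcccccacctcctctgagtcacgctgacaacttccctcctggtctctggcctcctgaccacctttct

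The Lama5 stretch, with a GC content of 72.4%, holds 4 GC boxes and 1 PU box. The Itgam stretch holds 1 GC box and 2 PU boxes, whereas those of Itgax, Itga8 and Itgb7 hold none of either motif. Promoter windows were matched for 23 of the 37 members, 26 windows in all, some genes having more than 1 start. A member gene was counted where any of its windows held the motif, whereas the share of all windows counts single windows. These 2 measures are therefore not in the same unit. A GC box stood in the 250 bases of 8 of these 23 genes and in 32.7% of all 32851 windows, and a PU box in 13 of the 23 and in 23.3% of all windows. The TATA box letters TATAAA and AGGTCA, letters that nuclear receptors bind, searched on both strands, stood in none of the 23, beside 12.4% and 14.0% of all windows. A match is only a match of letters.

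The laminin α chains changed in both directions, with 3 of 5 called lower and 2 called higher. Lama5, chain α5 of the embryonic basement membrane (chromosome 2, 180176373 to 180225859, GRCm38), had levels of 31.3 and 28.8 FPKM in the Undiff libraries and 10.4 and 9.95 FPKM in Day4. Its log2 fold change was -1.56 (SE 0.05, edgeR adjusted p = 4.6e-12). Lama1, chain α1 of the first embryonic laminin, had 8.72 and 10.5 FPKM in Undiff and 1.76 and 2.0 FPKM in Day4, a log2 fold change of -2.34 (SE 0.09). Both chains fell with no overlap of the states. Lama3, the α chain of the epithelial laminin that anchors skin, fell from 352 and 347 normalized counts to 28.2 and 32.2, a log2 fold change of -3.51.

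Lama4 and Lama2 rose from low levels. Lama4, an α chain of vessel walls and mesenchyme, had 0.27 and 0.209 FPKM in Undiff and 1.81 and 2.06 FPKM in Day4 (log2 fold change 3.01, SE 0.12). Lama2, the α chain of the muscle basement membrane, had 21 and 18 counts in the Undiff libraries and 383 and 545 in the Day4 libraries, which made a log2 fold change of 4.23 (SE 0.16, edgeR adjusted p = 2.8e-11). Even so, Lama5 remained the most abundant α chain, at 10.2 ± 0.352 FPKM in Day4 (SD, n = 2), followed by Lama4 (1.94 ± 0.179 FPKM) and Lama1 (1.88 ± 0.17 FPKM), whose libraries overlapped. With the length of the longest transcript in place of all exons, Lama4 stood above Lama1 in Day4, at 3.87 against 1.91 FPKM. The sum of the 5 α chains was 41.3 and 40.4 FPKM in Undiff and 14.7 and 14.8 FPKM in Day4 (exact permutation test, p = 0.3333, the smallest that 2 against 2 libraries allow).

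Of the β chains, Lamb2 rose, Lamb3 fell and Lamb1 was not called. Lamb1, the β chain of most embryonic laminins (chromosome 12, 31265234 to 31329644), had 27.1 and 28.2 FPKM in Undiff and 19.8 and 20.4 FPKM in Day4, a log2 fold change of -0.46 that is under the fold threshold. Lamb2, the β chain of synaptic and kidney basement membranes, had 6.2 and 6.12 FPKM in Undiff and 14.9 and 15.4 FPKM in Day4 (log2 fold change 1.3, SE 0.05). The summed β level was 34.1 and 35.1 FPKM in Undiff and 34.8 and 35.9 FPKM in Day4, where the states overlapped (exact permutation test, p = 0.667). With the length of the longest transcript the states did not overlap, at 54.3 and 56 FPKM in Undiff and 50.2 and 51.8 FPKM in Day4 (exact permutation test, p = 0.3333). Within the sum over all exons the share of Lamb1 was 80.0% ± 0.671 in Undiff and 56.9% ± 0.0478 in Day4, and that of Lamb2 was 17.8% ± 0.512 and 42.9% ± 0.000722 (SD, n = 2). Lamb3, at 196 and 182 normalized counts in Undiff and 15.7 and 22.3 in Day4, fell by 3.27 on the log2 scale.

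Of the γ chains, Lamc1 was not called and Lamc3 rose. Lamc1, the γ chain shared by most laminins (chromosome 1, 153218922 to 153332786), had the highest level of any laminin chain in both states, with 63.9 and 66.1 FPKM in Undiff and 33.4 and 33.8 FPKM in Day4. Its log2 fold change of -0.95 (SE 0.04, edgeR adjusted p = 5e-11) lay just short of the fold threshold, so it was not called. Lamc3, a γ chain of nerve and retina, rose from 11 and 9 counts to 269 and 319 counts (log2 fold change 4.53, SE 0.23), and yet made up only 3.25% ± 0.328 of the γ level in Day4. The γ sum was 68.0 and 70.5 FPKM in Undiff and 35.4 and 35.6 FPKM in Day4.

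**Figure D2:**
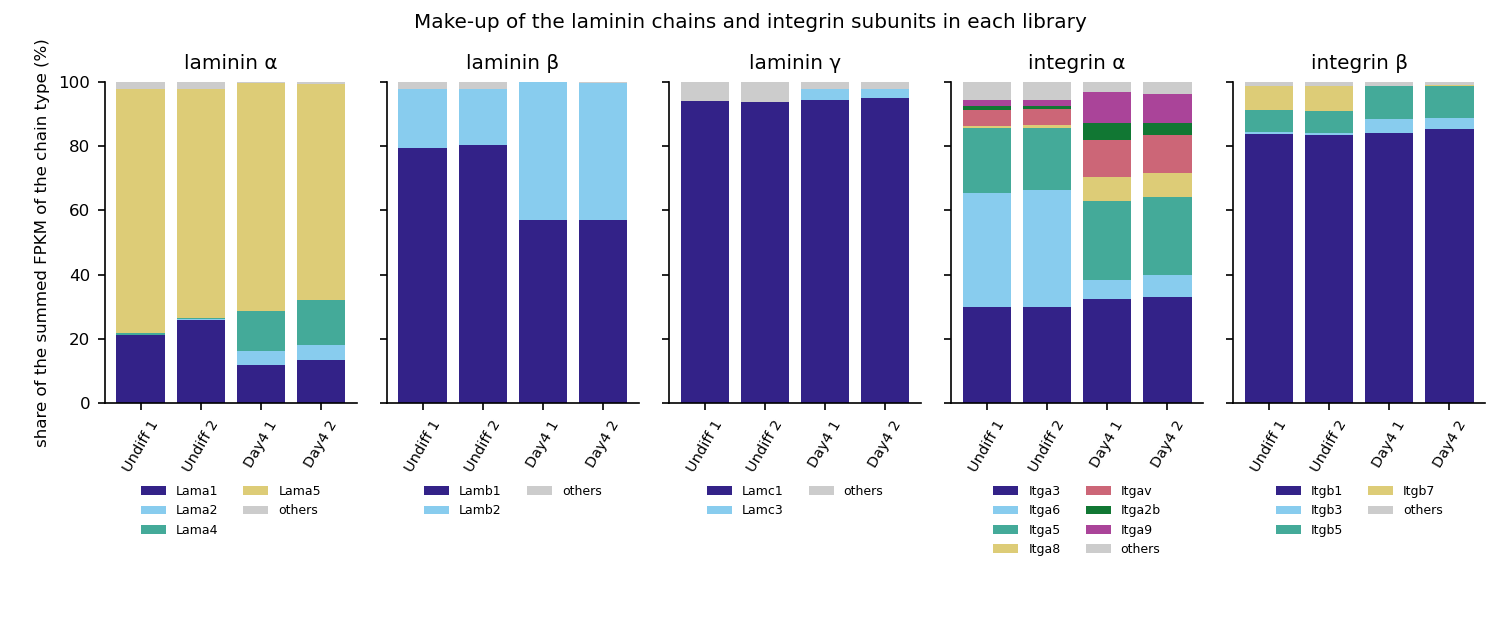
Share of the summed FPKM of each chain type taken by its genes in each library; members under 3% in both states or not reported singly are pooled as others. In the laminin β panel Lamb2 takes 42.9% of the Day4 level, and in the integrin α panel Itga6 goes from 35.8% in Undiff to 6.38% in Day4, while the integrin β panel is mostly Itgb1 throughout.

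Put together as trimers, none of the sets described here had all of its chains called in the same direction. Laminins 121 and 521 joined a chain called lower to one called higher. For laminin 511, Lama5 had 31.3 and 28.8 FPKM and Lamb1 27.1 and 28.2 FPKM in Undiff, and Lama5 was the scarcest chain in Day4, at 10.2 FPKM. Which of them was scarcest in Undiff depends on the length used: it was Lamb1 at 27.7 FPKM over all exons, and Lama5 at 30.1 FPKM with the longest transcript. For laminin 521 the scarcest chain was Lamb2 in Undiff, at 6.16 FPKM, and Lama5 in Day4, at 10.2 FPKM, with either length. The scarcest chain of laminin 411 and 421 was Lama4 in both states, at 0.24 and 1.94 FPKM. These are RNA levels of chains, and assembled trimers were not measured.

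Among the α subunits classed here as laminin-binding, 2 of 3 were called lower and none higher. Itga1 and Itga2, whose dimers with β1 bind both collagen and laminin, were classed as collagen-binding. Of these, Itga2 was called higher. Itga6, the laminin receptor subunit by which many stem cells are sorted (chromosome 2, 71745616 to 71858416), was the most abundant integrin α gene in Undiff, with 32.5 and 33.7 FPKM, and had 3.89 and 4.45 FPKM in Day4. Its log2 fold change was -2.98 (SE 0.06, edgeR adjusted p = 5.1e-14), and its share of the integrin α level went from 35.8% ± 0.476 to 6.38% ± 0.585 (SD, n = 2). Itga7, the laminin receptor subunit of muscle, had 225 and 177 normalized counts in Undiff and 15.7 and 15.4 in Day4, for a log2 fold change of -3.7. Itga3, the third subunit classed as laminin-binding, had 27.4 and 28 FPKM in Undiff and 21.1 and 21.7 FPKM in Day4. Its log2 fold change of -0.37 was not called, and it was the most abundant integrin α gene in Day4.

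Of the collagen-binding α subunits, 1 was called in each direction and 2 were not called. Itga10, a collagen receptor of cartilage, had 148 and 191 normalized counts in Undiff and 41.8 and 48.4 in Day4, a log2 fold change of -1.88 (SE 0.19). Itga2, the collagen receptor of platelets and epithelia, had 2 and 5 counts in the Undiff libraries and 31 and 86 in the Day4 libraries. Its log2 fold change of 3.69 (SE 0.57) rests on few counts: it was 4.56 without Undiff replicate 2, 3.09 without Undiff replicate 1 and 2.98 without Day4 replicate 2. Its neighbour Itga1, 21 kb away, had 105 and 141 normalized counts in Undiff and 133 and 198 in Day4, which overlap, and Itga11 had 19.8 and 31.1 in Undiff and 25.1 and 23.8 in Day4.

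Of the 4 RGD-binding α subunits 2 were called higher and none lower. Itga8, the receptor subunit for nephronectin in the developing kidney, rose from 0.718 and 0.881 FPKM to 4.85 and 4.93 FPKM (log2 fold change 2.62, SE 0.09). Itga2b, the α subunit of the platelet fibrinogen receptor, rose from 0.924 and 0.979 FPKM to 3.42 and 2.47 FPKM (log2 fold change 1.61, SE 0.15). Itga5, the fibronectin receptor subunit, had 18.4 and 18.2 FPKM in Undiff and 16.2 and 15.8 FPKM in Day4, and Itgav, which pairs with several β subunits, had 4.66 and 4.58 FPKM in Undiff and 7.51 and 7.65 FPKM in Day4. Neither reached the fold threshold, with log2 fold changes of -0.2 and 0.71. A transcript that shares exon bases with Itga8 on the opposite strand, E030013I19Rik, moved the same way (0 and 1.197 normalized counts in Undiff, 40.74 and 41.46 in Day4), and without strand in the counting the reads of such partners cannot be told apart.

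Both Itga4 and Itga9, subunits for fibronectin, VCAM1 and tenascin, were called higher. Itga9 had 1.74 and 1.65 FPKM in Undiff and 6.19 and 5.99 FPKM in Day4 (log2 fold change 1.84, SE 0.07). Itga4 had 83.4 and 61.0 normalized counts in Undiff and 175 and 223 in Day4 (log2 fold change 1.47, SE 0.18). The sum of the 18 α subunits was 91.6 and 93.2 FPKM in Undiff and 65.2 and 65.5 FPKM in Day4, and Itga6 alone was 28.9 FPKM lower in Day4 on the means of the 2 states. In Undiff the order of the leading α genes was Itga6, Itga3 and Itga5, and in Day4 it was Itga3, Itga5, Itgav, Itga9, Itga8 and Itga6, with no overlap between neighbours over the 2 libraries of a state. With the length of the longest transcript in place of all exons, Itga6 was 10.4% of the Day4 α level, above Itga9 (7.96%) and Itga8 (7.4%), so that the lower end of this order depends on the length used.

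**Figure D3:**
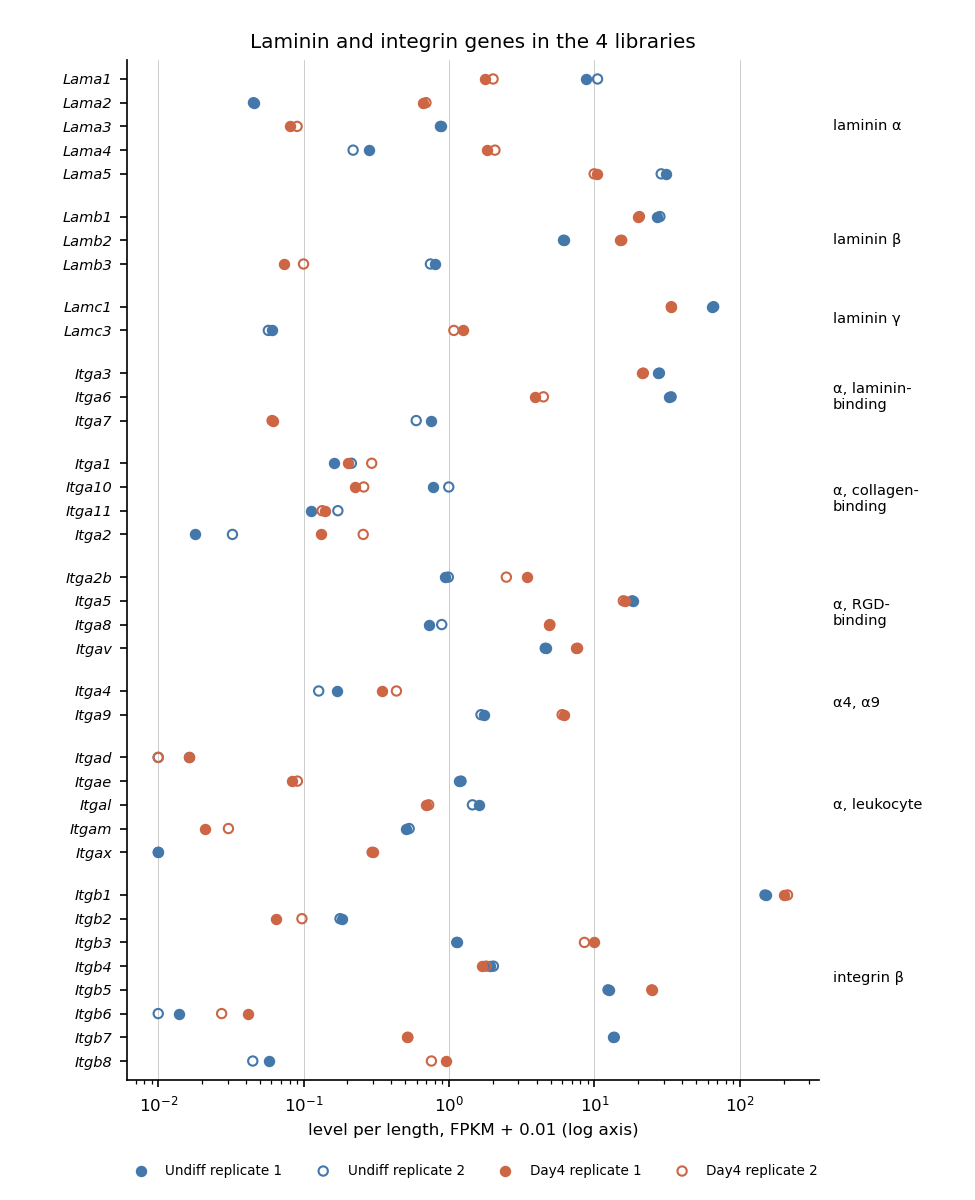
Levels of the laminin and integrin genes reported here in the 4 libraries, as FPKM + 0.01 on a log axis, with filled symbols for replicate 1 and open symbols for replicate 2. Itgb1 lies highest in every library, between 149 and 213 FPKM, and replicates lie close together except for low genes such as Itga2, Itga11 and Itgb6.

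The α subunits of white blood cell integrins were called lower in 3 of 5 cases and higher in 1. Itgam, the αM subunit of macrophages and neutrophils (chromosome 7, 128062640 to 128118491), had 92.7 and 98.1 normalized counts in Undiff and 2.09 and 3.84 in Day4, a log2 fold change of -4.89 (SE 0.35, edgeR adjusted p = 2.1e-08). Itgax, the αX subunit of dendritic cells, begins 11.1 kb behind it and went the other way: it had no count in either Undiff library and 50 and 67 counts in the Day4 libraries, at least 15.4-fold higher against a floor of 3 counts per library (edgeR adjusted p = 7.1e-07). The next gene, Itgad, 3.72 kb further on, had at most 1 count in any library. Itgae, the subunit that binds E-cadherin, fell from 199 and 206 to 12.5 and 13.8 normalized counts (log2 fold change -3.92), and Itgal, the subunit of lymphocyte LFA-1, fell from 397 and 354 to 169 and 176 (log2 fold change -1.12).

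Markers of white blood cells mostly fell, as Itgam, Itgal and Itgae did, whereas Itgax rose. Of 10 leukocyte markers 6 were called lower in Day4 and none higher, and their summed level was 70.5 and 71.2 CPM (counts scaled by the library total) in Undiff and 3.15 and 3.5 CPM in Day4. Laptm5 was the highest of them, with 1253 and 1415 normalized counts in Undiff and 27.2 and 31.5 in Day4. Most of the Undiff sum came from Laptm5, Cd68 and Coro1a, the last with 500.2 and 457 normalized counts in Undiff. The defining marker Ptprc (CD45), named after its values were seen, had 2.08 and 5.98 normalized counts in Undiff and 0 in both Day4 libraries, and Spi1 and Cd3e were at the floor in Day4. Other markers of the list kept counts in Day4, such as Cd68, with 773 and 704 normalized counts in Undiff and 54.3 and 56.8 in Day4. The 4 not called, Ptprc, Csf1r, Lyz2 and Fcer1g, were already low in Undiff, with at most 13.5 normalized counts in a library. Coro1a, Csf1r, Lyz2 and Fcer1g were also named after their values were seen. The part of such cells in the changes of Itgam, Itgal, Itgae and Itgax was not tested.

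Of the β subunits 3 were called higher, 2 lower and 3 not at all. Itgb1, the common partner of 12 of the 24 pairs examined (chromosome 8, 128685654 to 128733200), had 151 and 149 FPKM in Undiff and 203 and 213 FPKM in Day4, and its log2 fold change of 0.47 was not called. It made up 83.7% ± 0.259 of the β level in Undiff and 84.8% ± 0.839 in Day4 (SD, n = 2). Itgb7, the β subunit of gut-homing lymphocytes (chromosome 15, 102215995 to 102231944), was the second most abundant β gene in Undiff, with 13.4 and 13.7 FPKM, and had 0.504 and 0.511 FPKM in Day4 (log2 fold change -4.74, SE 0.1, edgeR adjusted p = 7.1e-14). Its level in Undiff exceeded that of Itgae and Itga4, the α subunits it pairs with, which were at 1.18 ± 0.0279 and 0.138 ± 0.0302 FPKM.

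Itgb3, Itgb8 and Itgb5 were the β subunits called higher. Itgb3, the β subunit of the vitronectin and platelet fibrinogen receptors, had 1.13 and 1.12 FPKM in Undiff and 10 and 8.53 FPKM in Day4 (log2 fold change 3.04, SE 0.1). Itgb8, whose dimer with αV releases active TGF-β, had 19 and 12 counts in the Undiff libraries and 373 and 403 in the Day4 libraries (log2 fold change 4.31, SE 0.23). Itgb5, another vitronectin receptor subunit, lay on the fold threshold, with 12.5 and 12.4 FPKM in Undiff and 25 and 24.8 FPKM in Day4, and its call was lost without Undiff replicate 2, Day4 replicate 1 or Day4 replicate 2, where its log2 fold change was 0.98 to 1.00. Itgb6 had 1 and 0 counts in Undiff and 8 and 6 counts in Day4, at least 1.93-fold higher, and did not reach the minimum count.

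Itgb2, the partner of the white blood cell α subunits, was low in all libraries. It had 19.8 and 19.1 normalized counts in Undiff and 6.27 and 9.98 in Day4, a log2 fold change of -1.2 (SE 0.43, edgeR adjusted p = 0.021). This call was lost without Undiff replicate 1 (adjusted p = 0.071 in edgeR) and without Day4 replicate 1 (0.098), and DESeq2 gave an adjusted p of 0.16. Itgb4, which pairs with α6 in the hemidesmosome of epithelia, had 1.9 and 2.01 FPKM in Undiff and 1.67 and 1.79 FPKM in Day4 and was not called. The sum of the 8 β subunits was 180 and 178 FPKM in Undiff and 241 and 249 FPKM in Day4.

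Across the 24 integrin pairs, both subunits were called higher for αIIbβ3 alone, and both lower for αEβ7, αLβ2 and αMβ2. The subunits of α4β7 and αXβ2 were called in opposite directions. For αLβ2, αMβ2 and αXβ2 this rests in part on the call of Itgb2, which was lost with DESeq2. A single subunit was called higher in 7 pairs and lower in 5, and none in the other 6. For the laminin receptor α6β1, the level of Itga6 per Itgb1 was 0.215 and 0.226 in Undiff and 0.0192 and 0.0209 in Day4, whereas for α3β1 the level of Itga3 per Itgb1 was 0.181 and 0.188 in Undiff and 0.104 and 0.102 in Day4. For α6β4, Itgb4 was the scarcer subunit in both states, at 1.96 and 1.73 FPKM.

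**Figure D4:**
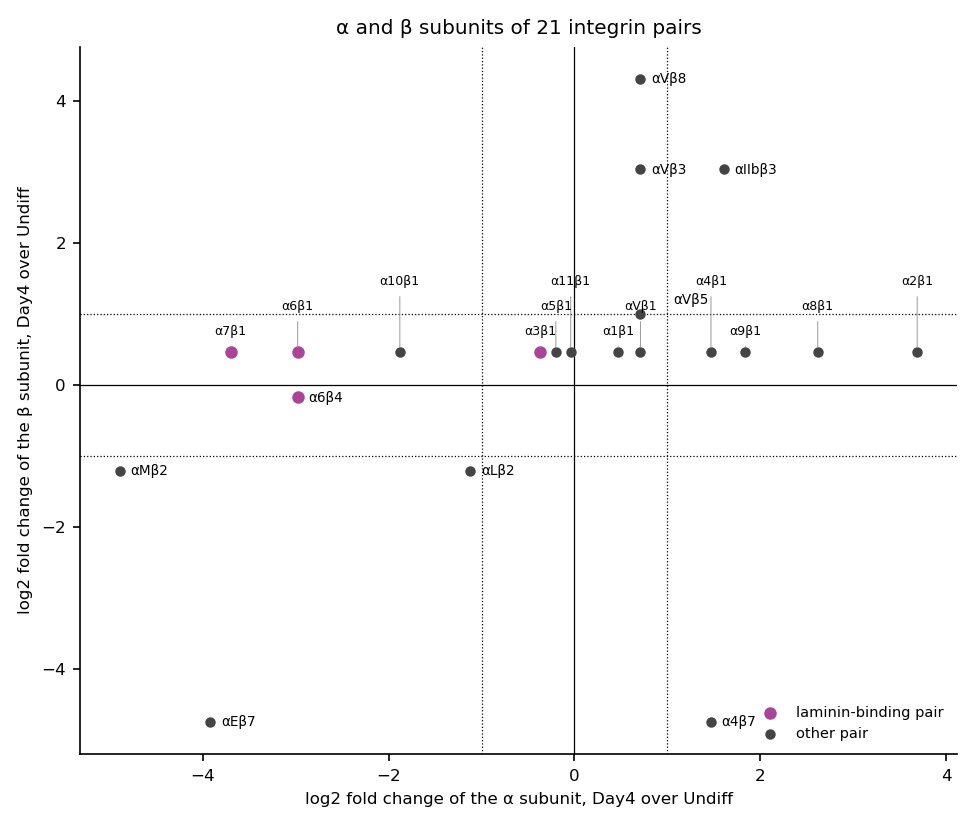
Log2 fold changes (Day4 over Undiff) of the α subunit and the β subunit of 21 integrin pairs; pairs with Itgax, Itgad or Itgb6, which were at the floor in 1 or both states, are left out, and dotted lines mark a log2 fold change of 1 in either direction. The β1 pairs share 1 height at 0.47 and spread from α7 on the left to α2 on the right.

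In αVβ3 and αVβ8 the β subunit was called higher and Itgav was not called. Itgav was 4.11 times the level of Itgb3 in both Undiff libraries and 0.75 and 0.897 times in Day4. The Day4 order of these genes depends on the length used, since with the longest transcript Itgav was at 11.5 FPKM and Itgb3 at 9.46 FPKM. For αVβ8, Itgb8 was the scarcer gene in both states, at 0.0412 ± 0.00929 and 0.844 ± 0.137 FPKM. For αIIbβ3, Itga2b was at 0.951 ± 0.0388 FPKM in Undiff and 2.95 ± 0.673 FPKM in Day4 and was the scarcer gene in both states, although in Undiff it exceeded Itgb3 with the longest transcript (1.51 against 1.15 FPKM).

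Most megakaryocyte markers examined rose, as Itga2b and Itgb3 did. Of 7 such markers 5 were called higher in Day4, and their summed level was 2.75 and 2.52 CPM in Undiff and 10.4 and 7.65 CPM in Day4. Pf4, Gp9, Gp1bb and Ppbp were at the floor in Undiff. Ppbp and Gata1 were not called, and Gata1, named after its values were seen, had a log2 fold change of -0.44. The count of 5 became 3 without Day4 replicate 2, and also with all libraries thinned to the smallest total. The part of such cells in the rise of Itga2b and Itgb3 was not tested.

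The partners of laminins in the basement membrane gave 8 genes called higher and none called lower of 15, although the laminin α and γ sums were lower in Day4. Col4a5, a chain of the collagen IV network, had a log2 fold change of 5.42 and Col4a2 one of 1.86, and Npnt, the ligand of α8β1, rose with its receptor subunit (log2 fold change 2.2). Nidogens and perlecan, which join laminin to collagen IV, were not called: Nid1 had a log2 fold change of -0.79, Nid2 of -0.96 and Hspg2 of -0.75. Without Undiff replicate 2 or without Day4 replicate 1, 1 of the 15 was called lower. All 4 genes listed under crosslinking and laminin processing were called higher. They were Pxdn (2.3), which crosslinks collagen IV, Loxl2 (2.64), Bmp1 (3.0), a protease that trims laminin chains, and Ntn4 (2.39). Ntn4, named after its values were seen, is not an enzyme of either kind and was low, at a mean of 52.2 normalized counts in Day4.

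Of 6 laminin receptors other than integrins, Sdc2 was called higher (log2 fold change 2.92), Sdc4 was called lower (-1.71), and the dystroglycan gene Dag1, at 13289 and 12636 normalized counts in Undiff and 12709.7 and 12489 in Day4, was among the 4 not called. Other integrin ligands were divided, with 8 of 23 called higher and 9 lower, beside 22.2% and 20.6% of all genes. Emilin1 (5.41), Tgfbi (4.21) and Fbn1 (3.01) had the largest rises of those at 10 CPM or more, and Spp1 (-7.99), Cdh1 (-5.6) and Icam1 (-5.04) the largest falls. Cdh1 is E-cadherin, the ligand of αEβ7, and Icam1 a ligand of αLβ2 and αMβ2, so that for these 3 pairs both subunits and a ligand were called lower. For αLβ2 and αMβ2 this rests on the low gene Itgb2, whose call was lost with DESeq2 (DESeq2 adjusted p = 0.16). Fn1, the fibronectin gene and named after its values were seen, also fell (log2 fold change -2.26), while its receptor subunit Itga5 was not called.

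Inside the cell, 8 of 26 integrin activators and adhesion adaptors were called higher and 4 lower, beside 22.2% and 20.6% of all genes. Parva (3.9), Tns1 (2.3) and Zyx (2.13), which link integrins to actin, led the rises on the log2 scale. Cd9, a tetraspanin that associates with integrins, fell by 4.09 on the log2 scale, and Vcl, the actin linker vinculin, by 1.18. The talin gene Tln1 (0.89) and the kinase gene Ptk2 (0.14) were among the 14 not called.

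Markers of other cells that the culture could hold changed as well, in some lists mostly upward and in others in both directions. Of smooth muscle and mesenchyme markers 6 of 10 were called higher and none lower, with a summed level of 178 and 172 CPM in Undiff and 775 and 819 CPM in Day4. The 4 not called were muscle genes: Tagln (log2 fold change 0.09), Cnn1 (0.56), Myh11 (0.24) and Des (-0.19). The smooth muscle gene Acta2 was called higher (2.55). These genes were named after their values were seen. Of fibroblast markers 6 of 8 were called higher and 1 lower, with Col3a1 at a log2 fold change of 9.14, and of endothelial markers 5 of 8 higher and 3 lower. Stratified epithelium markers, set beside the epithelial chains Lama3 and Lamb3, were lower in 3 and higher in 2 of 8 cases, with a summed level of 338 and 325 CPM in Undiff and 105 and 109 CPM in Day4, and the defining marker Dsg3 at the floor in all 4 libraries. Most of that sum was Dst, a broadly expressed cytoskeletal linker, with 11043 and 10509 normalized counts in Undiff and 2818 and 2957 in Day4, while Krt15 (log2 fold change 6.09) and Trp63 (3.54), both named after their values were seen, rose. Neural progenitor markers were higher in 3 and lower in 3 of 10 cases, beside 22.2% and 20.6% of all genes. The part of such cells in the changes of the laminin and integrin genes was not tested.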

How the data were processed

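Gene expression was measured by Illumina TruSeq RNA sequencing in 2 Undiff and 2 Day4 libraries of R1 ESCs. The authors used cutadapt for trimming, STAR 2.4.2a for alignment to mm10 and HTSeq for counting uniquely mapped fragments per gene, and the deposited values are raw counts per gene symbol. For gene counts, the methods name strand-specific counting for the direct RNA libraries of the study only. Exons of the Illumina libraries were counted without strand. The strand option for the gene counts used here is not stated outright. Groups and replicate numbers were taken from the sample titles.

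TMM normalization and the quasi-likelihood test of edgeR 4.0.16 (glmQLFit with legacy = FALSE, then glmQLFTest, in R 4.3.3) were applied to the 19891 genes with a count, with the state as the only term. Standard errors are the log2 fold change divided by the square root of F. The common dispersion was 0.001337. On counts simulated from the means and common dispersion of this fit, with large changes given to some genes, the test recovered most of these. FPKM was computed here with the union of exons in GENCODE vM21 (GRCm38), to which all 37 members matched by symbol. That annotation differs from the one counted on, and 4 members share exon bases with a gene on the opposite strand (Itga4, Itga7, Itga8 and Itgad). Counts of 3 or fewer in each library of a state were taken as the floor, which covers counting error only. Promoters were taken from RefSeq.

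The rule for named genes took every member, and from each companion or marker list up to 3 highest and 3 lowest called genes whose mean reached 10 CPM. The members and lists were chosen with earlier results of these data known. Alternatives were DESeq2 1.42.0 with and without shrinkage, other size factors, filters and thresholds, thinning, each library left out, a replicate block and, chosen after seeing the data, glmQLFit with legacy = TRUE. A few genes of these families and lists are not reported singly here. Sums and shares were compared by exact two-sided permutation tests in Python 3.11.15. Figures were drawn with matplotlib 3.10.9.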

Additional observations from a re-analysis of the deposited data

How the results depend on the processing

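Across the alternatives, edgeR or DESeq2 called 12 to 16 laminin and integrin genes higher and 11 to 17 lower, and leaving out 1 library gave 12 to 13 in each direction. Without a minimum fold change, 7305 of all genes were called higher and 7004 lower, and 7 more members were called. Itga11, which was not called, had a log2 fold change of 0.02 with library totals and -0.35 to 0.30 with a library left out (0.30 without Undiff replicate 2), and Itgad, at the floor, had 0.0 with a replicate block and -2.49 to 2.22 with a library left out (2.22 without Undiff replicate 1 and 0.74 without Day4 replicate 2). The call of Itgb5 was lost with both DESeq2 settings, DESeq2 size factors, filterByExpr, thinning and glmTreat (log2 fold change 0.96 to 1.00), those of Itgb2 and Itgal with glmTreat, and Itgb6 was called without the minimum count. With the length of the longest transcript, the share of Lama5 in Day4 was 59.3%, that of Lamb1 was 86.0% in Undiff and 67.7% in Day4, that of Lamc1 was 91.4% and 93.9%, that of Itga6 in Undiff was 49.4% and that of Itga3 in Day4 was 30.0%. Lama4 moved to 22.5% of the Day4 laminin α level, above Lama1 at 11.1%. The class sums and the scarcest chains were recomputed with this length after seeing the data. Library totals shifted the median log2 fold change of all genes by 0.07 and DESeq2 size factors by -0.04. Whether the replicate numbers pair the samples is not given in the sources used here. Deviations of same-numbered libraries had a correlation of -0.01004 over 16470 genes, which shows no shared deviation but cannot settle the pairing. With the replicate number as a block, 4414 genes were called higher and 4101 lower, with 13 and 13 members and no member's call changed. Itga2, Itga11, Itgad, Itgam, Itgax, Itgb2 and Itgb6 rest on fewer than 100 counts in each library.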

Other observations

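Replicates of the same state lay close for most members. Among the 30 members with at least 20 normalized counts in both Day4 libraries, the median ratio of the higher to the lower replicate was 1.05, and 5 exceeded 1.2. The ratio was highest for Itga2, at 2.04. In Undiff the median over 29 members was also 1.05, with 1.37 for Itga4 as the highest.

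The Day4 replicates differed in the platelet integrin genes and in megakaryocyte genes. Itga2b had 698.8 normalized counts in Day4 replicate 1 and 504.4 in Day4 replicate 2, a ratio of 1.39, and Itgb3 had 2212 and 1884, a ratio of 1.17. The ratio was 2.28 for Pf4 and 1.81 for Gp9, while it was 0.738 for Gp1ba and 0.856 for Gata1. With 2 libraries of the state, these differences have no replicate check.

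Members that lie near each other in the genome did not always share a direction. Itgam (lower) and Itgax (higher) are 11.1 kb apart, whereas Itgal, 728 kb before Itgam, was also called lower. Itga2b and Itgb3, 2.14 Mb apart on chromosome 11 and the 2 subunits of 1 receptor, were both called higher.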
